A study of Mus musculus with 18 samples.

Results

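The 9 transcripts described here are long noncoding RNAs that carry small nucleolar RNAs (snoRNAs) in their introns: Gas5, Snhg1, Snhg3, Snhg5, Snhg6, Snhg8, Snhg12, Snhg15 and Zfas1. They were chosen by name, as the rows of the deposited table whose gene name is one of these 9, and each name matched 1 of the 57180 genes. The names were chosen with earlier results of these data known, so the shares over all genes given beside them are descriptions only. All 9 passed the filter on low counts that left 14263 genes to be tested. The cells were L929, an established line of mouse fibroblasts, and total RNA was sequenced from 3 independent cultures in each of 6 groups. Mock cultures are labelled as treated with DMSO, the solvent control. AOA cultures received aminooxyacetic acid, an inhibitor of aminotransferases, at 0.5 mM, starting 1 h before any DNA was added. AOA+Asp cultures received the same AOA with 20 mM aspartate, an amino acid that aminotransferases make. HT-DNA cultures were transfected with herring testis DNA, a double-stranded DNA that activates the cytosolic DNA sensor cGAS, at 0.5 μg/ml for 6 h, and the HT-DNA+AOA and HT-DNA+AOA+Asp cultures combined these treatments. The paper names Lipofectamine as the carrier of the DNA. Whether Mock cultures received it is not given in the sources used here, so an effect of HT-DNA cannot be told apart from one of transfection. No culture with aspartate alone was analysed here, so each effect of aspartate is an effect in the presence of AOA, and all values come from 1 cell line.

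By way of background, a snoRNA is cut out of an intron of its host RNA and then guides the chemical modification or processing of ribosomal RNA, the C/D class guiding methylation and the H/ACA class guiding pseudouridylation. The spliced host RNA that remains is exported, and ribosomes meet a stop codon early on it. Where spliced junctions lie downstream of that stop, the nonsense-mediated decay (NMD) pathway degrades the RNA while it is being translated, so host RNAs of this kind are known to accumulate when translation is blocked. Many of them also start with a run of pyrimidines at the 5′ end, the terminal oligopyrimidine (TOP) motif of mRNAs for ribosomal proteins, whose translation follows growth conditions through mTOR. Neither translation nor the rate of decay was measured in these cultures, so the levels below are amounts of RNA and no more.

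The sequences around the start sites are shown because the TOP motif sits there. RefSeq promoter windows (GRCm38.p6) were found for 8 of the 9 transcripts, Snhg6 being the other, and Gas5 has 2 annotated starts, which gives 9 windows. The windows printed here run from 60 bases before the annotated start to 30 bases into the transcript and are written 5′ to 3′ on the strand of the gene. Capitals mark, reading from the left, the letters TGACGTCA, a TATA element (TATAA or TATAT lying 20 to 40 bases before the start, searched on the gene's strand) and a C followed by at least 4 pyrimidines that begins within 10 bases of the start. In this set, 5 hold the pyrimidine run and Snhg1, shown for comparison, holds none by this rule. Its longest pyrimidine run near the start opens with a T.
Gas5, downstream start, chr1:161035106-161035195, plus strand: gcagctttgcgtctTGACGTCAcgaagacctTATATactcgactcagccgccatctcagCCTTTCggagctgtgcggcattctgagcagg
Snhg12, chr4:132308618-132308707, plus strand: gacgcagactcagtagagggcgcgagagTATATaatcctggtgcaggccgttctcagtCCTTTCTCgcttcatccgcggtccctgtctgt
Snhg8, chr3:123508307-123508396, minus strand: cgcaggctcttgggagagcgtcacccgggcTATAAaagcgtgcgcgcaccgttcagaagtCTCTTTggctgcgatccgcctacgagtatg
Snhg5, chr9:88522868-88522957, minus strand: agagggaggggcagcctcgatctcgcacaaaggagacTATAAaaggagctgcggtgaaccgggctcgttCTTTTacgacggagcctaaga
Snhg3, chr4:132353657-132353746, minus strand: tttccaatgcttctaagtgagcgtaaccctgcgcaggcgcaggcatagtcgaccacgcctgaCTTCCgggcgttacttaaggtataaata
Snhg1, chr19:8723427-8723516, plus strand: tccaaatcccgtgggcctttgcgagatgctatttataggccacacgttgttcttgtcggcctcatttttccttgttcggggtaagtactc

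The pyrimidine run was present in 5 of the 9 windows, 1 in each of 5 transcripts, against 29.7% of the 32851 RefSeq promoter windows of the mouse. The TATA element was present in Gas5, Snhg5, Snhg8 and Snhg12, or 4 of 9 windows, against 4.68% of all windows, and these 4 held both features, against 1.54%. The letters TGACGTCA, searched on both strands over the full window of 300 bases, were found in Gas5 and Snhg15, against 1.79% of windows. The shorter TGACGT, which lies within it, was found in the same 2 transcripts, against 7.51% of windows. CACGTG was found in 1 transcript, Snhg15, against 7.15%, and TGATGNAA, the core letters of the amino acid response element that ATF4 binds, in none, against 3.97%. These are matches of letters, counted with the members' results known.

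The spliced transcripts also carry short reading frames. In the GENCODE transcript that matches RefSeq, the frame opened by the first AUG closed after 40 codons in Snhg1, with 5 exon junctions lying at least 50 bases beyond its stop. The same count was 4 junctions after a frame of 3 codons in Snhg5, 4 after 17 codons in Zfas1, 3 after 54 codons in Snhg12, 3 after 35 codons in Snhg15 and 1 after 53 codons in Snhg6. Snhg3 (42 codons) and Snhg8 (1 codon, in an unspliced transcript of 1 exon) had 0 such junctions. Spliced Snhg8 transcripts of 3 and 2 exons, without a RefSeq match, had 2 and 1 after a frame of 1 codon. The other Snhg3 transcripts had 0 or 1. For Gas5 no GENCODE transcript matched RefSeq, and the first frame held 23 codons in 16 of its 25 transcripts.

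Depth was similar in all libraries, from 17901605 to 24057343 counts with a median of 20385838, and the 9 transcripts took 0.0424% to 0.126% of the counts of a library. Their own counts ran from 238 (Snhg6) to 10033 (Snhg1) in a library, so no value of these 9 below rests on few reads. The HT-DNA+AOA libraries were the most spread, and replicates 1 and 3 of that group differed by 60.8 in chi-square per degree of freedom over genes, where replicates of the other groups differed by 2.69 to 12.1. In the fibroblast check, 7 of 8 marker genes were at or above 1 CPM, Thy1 being the exception, with a sum of 3037 to 3710 CPM. All 4 epithelial and both endothelial markers were under 1 CPM. Of 4 leukocyte markers only Cd68 was over 1 CPM, and Ptprc, Csf1r and Cd3e were under it. The summed leukocyte level was 112 to 127 CPM with HT-DNA and 138 to 155 CPM with HT-DNA+AOA, and its part in the results below was not tested.

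Levels are given as CPM, that is, counts scaled to a common library size after TMM normalization, with mean ± SD over the 3 libraries of a group. Per kilobase of annotated exon, which makes the transcripts comparable with one another, Snhg8 was the highest in Mock at 45.1 ± 2.48 CPM per kb. Zfas1 (38.7 ± 3.11) and Snhg1 (36.1 ± 1.43) came next, followed by Snhg3 (29.6 ± 2.02). Gas5 (10.8 ± 0.824) and Snhg6 (9.90 ± 0.77) were the lowest on this scale. The exon lengths, 853 to 3760 bases, include retained-intron transcripts, so levels per kilobase are lower where such transcripts are annotated.

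The question of the comparison of AOA with Mock was what the inhibitor alone did to these RNAs. AOA alone raised 8 of the 9 host RNAs, by 0.35 to 1.67 on the log2 scale, and Snhg3 was the exception. Over all genes, 22.4% were called higher and 23.3% lower in this comparison (edgeR quasi-likelihood test, Benjamini-Hochberg adjusted p under 0.05), and the median log2 fold change was 0.82 for the 9 host RNAs and 0.015 for all genes tested. In the same 8, the lowest AOA library lay above the highest Mock library, which held for 29.8% of all genes. In RNA from whole cultures, a change in the amount per cell cannot be told apart from a change in the share of cells that hold the RNA.

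Among the hosts of C/D snoRNAs, Snhg1, which carries Snord22, changed the most. Its level was 102, 109 and 111 CPM in the Mock libraries and 327, 331 and 362 CPM with AOA, a log2 fold change of 1.67 ± 0.11 (SE; edgeR adjusted p = 1.01e-09). Every AOA library held about 3 times the Mock level. Snhg5, the host of Snord50a and Snord50b, went from 23.5, 25.2 and 24.8 to 56.9, 59.9 and 72.7 CPM, a log2 fold change of 1.36 ± 0.10 (edgeR adjusted p = 6.37e-09). Zfas1, the antisense transcript at the Znfx1 promoter that hosts Snord12, went from 105, 112 and 123 to 182, 200.2 and 218 CPM, or 0.82 ± 0.11 (edgeR adjusted p = 6.91e-06). The spread within each group was small beside both shifts. Gas5, named for its accumulation in growth-arrested cells, was 38.00, 39.5 and 43.9 CPM in Mock and 52.8, 57.4 and 59.02 CPM with AOA, a smaller rise of 0.48 ± 0.097 (edgeR adjusted p = 0.00055). Snhg6, the host of Snord87, was the lowest of the 9 in CPM, at 10.5, 12.3 and 11.3 and then 12.9, 14.7 and 15.9, with a rise of 0.35 ± 0.10 (edgeR adjusted p = 0.00851). That call was lost when libraries were scaled by their totals alone (0.22, adjusted p = 0.0745).

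Snhg12, which carries both classes of snoRNA, was 34.9, 36.5 and 37.5 CPM in Mock and 87.6, 97.6 and 93.9 CPM with AOA, a log2 fold change of 1.36 ± 0.087 (edgeR adjusted p = 7.65e-10). Its rise had the smallest standard error of the 9. The 3 hosts of H/ACA snoRNAs did not move together. Snhg15, the host of Snora9, went from 21.03, 22.03 and 23.7 to 44.96, 48.2 and 47.9 CPM, or 1.08 ± 0.11 (edgeR adjusted p = 4.12e-07). Snhg8, the host of Snora24, went from 36.4, 38.3 and 40.6 to 53.8, 65.4 and 72.3 CPM, or 0.73 ± 0.16 (edgeR adjusted p = 0.000983). Snhg3, the host of Snora73a and Snora73b, was 26.96, 29.8 and 30.8 CPM in Mock and 22.2, 26.6 and 29.7 CPM with AOA, a log2 difference of -0.16 ± 0.14 (edgeR adjusted p = 0.367). Its AOA and Mock libraries overlapped, and its estimate was below 0 under all 14 alternatives tried (-0.29 to -0.054, adjusted p from 0.0753 to 0.8).

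**Figure D1:**
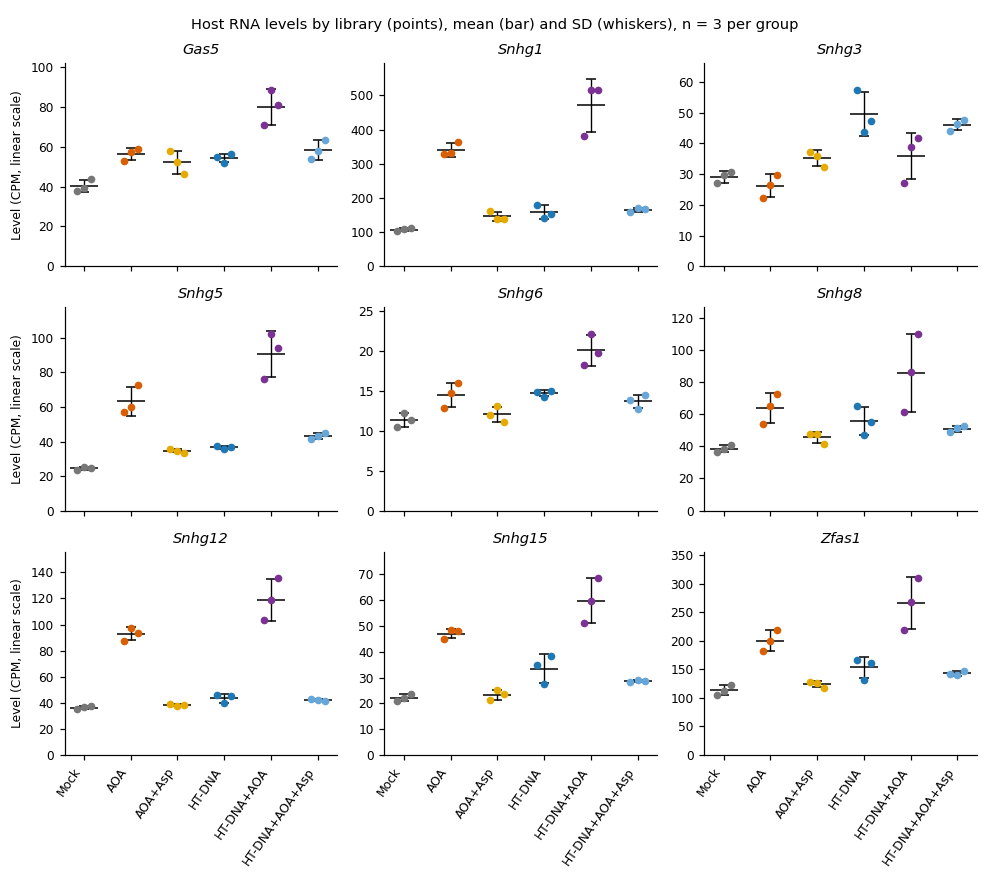
Level of each host RNA in CPM (linear axis from 0) in the 6 groups, with 1 point per library, a bar at the mean and whiskers of 1 SD (n = 3). In 8 panels the mean of Mock is the lowest and that of HT-DNA+AOA the highest, while for Snhg3 the AOA points lie among or below the Mock points and HT-DNA is the highest group.

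Adding aspartate to AOA lowered 7 of the 9 host RNAs compared with AOA alone and raised 1, while Gas5 was not called. Over all genes 22.8% were called lower and 23.5% higher. The median log2 fold change was -0.69 for the host RNAs and -0.0091 for all genes. The AOA+Asp libraries were wholly below the AOA libraries for 6 host RNAs (28.6% of all genes) and wholly above for Snhg3 (28.2%). This comparison and the previous one share the AOA libraries, so their values are not independent of each other.

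Snhg12 fell to 39.3, 37.3 and 38.04 CPM with aspartate, a log2 fold change of -1.28 ± 0.086 (edgeR adjusted p = 1.99e-09). Snhg1 fell to 160.4, 139 and 138 CPM, or -1.22 ± 0.11 (edgeR adjusted p = 5.99e-08). Snhg15 fell to 21.1, 25.00 and 23.8 CPM, or -1.01 ± 0.11 (edgeR adjusted p = 1.06e-06). In these 3, no AOA+Asp library came near the lowest AOA library. Snhg5 (35.5, 34.8 and 33.6 CPM), Zfas1 (128, 126 and 118 CPM) and Snhg8 (47.5, 47.9 and 41.6 CPM) fell by 0.87, 0.69 and 0.48 on the log2 scale (edgeR adjusted p = 1.42e-06, 4.74e-05 and 0.0173). Snhg6 fell by 0.27 to 11.99, 13.1 and 11.1 CPM (edgeR adjusted p = 0.0391), with 1 library inside the range of AOA, and its call was lost under 7 of 14 alternatives. The call of Snhg8 was lost under 3 of 14, without replicate 3 of AOA or of AOA+Asp (adjusted p = 0.0859 and 0.0749) and once GC content and length were corrected for (adjusted p = 0.0603).

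Gas5 and Snhg3 departed from the rest. Gas5 stayed at 57.9, 52.4 and 46.2 CPM with aspartate, with 1 library inside the range seen with AOA and the others below it, a log2 difference of -0.11 ± 0.096 (edgeR adjusted p = 0.352). Snhg3 rose to 37.2, 36.01 and 32.4 CPM, a log2 fold change of 0.43 ± 0.14 (edgeR adjusted p = 0.0151). Its direction was thus opposite to that of the other 8, but the call was lost without replicate 1 of AOA (0.32, adjusted p = 0.0836) or replicate 1 of AOA+Asp (0.39, adjusted p = 0.058).

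Cells given both AOA and aspartate were then compared with Mock, to see which host RNAs remained off their control level. The 3 that were higher were Snhg5, by 0.50 ± 0.10, Snhg1, by 0.44 ± 0.11, and Gas5, by 0.37 ± 0.097 on the log2 scale (edgeR adjusted p = 0.00527, 0.0168 and 0.0286), while 2.52% of all genes were called higher and the other 6 host RNAs were not called. All 9 estimates were above 0, although that of Snhg6 was -0.064 with the GC content and length correction, with a median of 0.25 against 0.0054 over all genes. The AOA+Asp libraries were wholly above the Mock libraries for 5 host RNAs, against 17.0% of all genes. For Snhg12 and Snhg15, which had more than doubled with AOA, the remaining differences were 0.075 ± 0.087 and 0.068 ± 0.12 (edgeR adjusted p = 0.688 and 0.802). The count of 3 fell to 1, Snhg5, without Mock replicate 1, Mock replicate 2 or AOA+Asp replicate 1, and rose to 5 when only the libraries compared were fitted. Gas5 also lost its call without AOA+Asp replicate 2 (0.36, adjusted p = 0.0689).

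HT-DNA transfection without AOA raised all 9 host RNAs over Mock, where 24.2% of all genes were called higher, and in all 9 the groups did not overlap (30.6% of all genes). This difference includes any effect of the carrier. The rises ran from 0.26 to 0.76 on the log2 scale, with a median of 0.54 against -0.0076 over all genes. Snhg3, which had not risen with AOA, had the highest estimate here. Its HT-DNA libraries held 57.5, 43.6 and 47.2 CPM, a log2 fold change of 0.76 ± 0.13 (edgeR adjusted p = 0.000217). Snhg15 (34.7, 27.4 and 38.2 CPM) rose by 0.59 ± 0.11 and Snhg5 (37.4, 35.4 and 36.95 CPM) by 0.58 ± 0.10 (edgeR adjusted p = 0.00046 and 0.000215). Snhg1 (179.7, 140.2 and 154 CPM) rose by 0.56 ± 0.11 (edgeR adjusted p = 0.000428). The leading estimates lay close together, and this comparison shares the Mock libraries with that of AOA. Snhg8, Zfas1, Gas5 and Snhg6 rose by 0.53, 0.44, 0.43 and 0.38 (edgeR adjusted p = 0.00977, 0.00314, 0.0017 and 0.00536). Snhg12 had the lowest estimate, 0.26 ± 0.087 at 45.6, 39.6 and 45.03 CPM (edgeR adjusted p = 0.0204). Its call was lost under 4 of 14 alternatives (adjusted p from 0.0083 to 0.122 over the 14), and the call of Snhg8 was lost without HT-DNA replicate 1 (0.41, adjusted p = 0.0629).

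In cells transfected with HT-DNA, AOA again raised 8 of the 9 host RNAs, and Snhg3 fell. Over all genes 22.8% were called higher and 22.7% lower, and the median log2 fold change was 0.79 for the host RNAs and 0.024 for all genes. For 7 host RNAs the HT-DNA+AOA libraries lay wholly above the HT-DNA libraries (21.9% of all genes), and for Snhg3 wholly below (22.9%). Snhg1 held 381, 515 and 517 CPM, a log2 fold change of 1.57 ± 0.11 over HT-DNA (edgeR adjusted p = 1.17e-09). Snhg12 held 103, 119 and 136 CPM, or 1.46 ± 0.086 (edgeR adjusted p = 1.63e-10). Snhg5 held 76.2, 102 and 93.98 CPM, or 1.31 ± 0.099 (edgeR adjusted p = 4.13e-09). In all 3, replicate 1 was the lowest of the group and still more than double the mean with HT-DNA. Snhg15 (51.2, 59.7 and 68.5 CPM) and Zfas1 (219, 268 and 309 CPM) rose by 0.84 ± 0.11 and 0.79 ± 0.11 (edgeR adjusted p = 4.83e-06 and 7.66e-06). Snhg8 (61.2, 86.1 and 109.96 CPM), Gas5 (70.8, 88.8 and 81.2 CPM) and Snhg6 (18.3, 22.1 and 19.7 CPM) rose by 0.62 ± 0.16, 0.56 ± 0.096 and 0.44 ± 0.099 (edgeR adjusted p = 0.00301, 8.96e-05 and 0.00113). With the GC content and length correction the rise of Snhg6 was 0.20 and its call was lost (adjusted p = 0.062). Replicate 1 of Snhg8 lay within the HT-DNA range, so that the groups overlapped there.

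Snhg3 held 27.3, 38.8 and 41.6 CPM with HT-DNA+AOA, a log2 fold change of -0.46 ± 0.13 from HT-DNA (edgeR adjusted p = 0.00803). All 3 libraries were below the 3 with HT-DNA. Replicate 1, from the pair that differed the most, was the lowest, and without it the fall was -0.30 (adjusted p = 0.0303). The call was lost without HT-DNA replicate 1 (-0.34, adjusted p = 0.0602) and when only the libraries compared were fitted (-0.46, adjusted p = 0.0749). The other 8 calls held without replicate 1 of HT-DNA+AOA, with estimates from 0.51 to 1.71.

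Aspartate added to HT-DNA+AOA lowered 8 host RNAs and raised Snhg3, where 23.9% of all genes were called lower and 23.7% higher. Each of the 9 was separated by library, the 8 being wholly lower (23.8% of all genes) and Snhg3 wholly higher (25.0%). The median log2 fold change was -0.89 for the host RNAs and -0.012 for all genes. Snhg1 fell to 159, 171 and 167 CPM, or -1.51 ± 0.11 (edgeR adjusted p = 3.01e-09), and Snhg12 to 42.8, 42.2 and 41.7 CPM, or -1.50 ± 0.086 (edgeR adjusted p = 1.73e-10). Snhg5 (41.3, 43.4 and 44.9 CPM) and Snhg15 (28.4, 28.96 and 28.6 CPM) fell by 1.07 ± 0.098 and 1.06 ± 0.11 (edgeR adjusted p = 7.32e-08 and 4.21e-07). The libraries of this group were close to one another, the 3 of Snhg15 within 1 CPM. Zfas1 (142, 139 and 147 CPM), Snhg8 (48.9, 51.5 and 52.4 CPM) and Snhg6 (13.8, 12.7 and 14.4 CPM) fell by 0.89, 0.75 and 0.55 (edgeR adjusted p = 2.46e-06, 0.000712 and 0.000185). Gas5, which had not been called for aspartate without HT-DNA, fell to 53.7, 58.1 and 63.7 CPM, or -0.46 ± 0.096 (edgeR adjusted p = 0.000744). Snhg3 rose to 44.1, 46.4 and 47.6 CPM, or 0.36 ± 0.13 (edgeR adjusted p = 0.033), but the call was lost under 4 of 14 alternatives. Without replicate 1 of HT-DNA+AOA the estimate was 0.20 (adjusted p = 0.135), without HT-DNA+AOA+Asp replicate 2 or 3 it was 0.36 and 0.34 (adjusted p = 0.0739 and 0.0874), and when only the libraries compared were fitted it was 0.35 (adjusted p = 0.107).

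With HT-DNA, AOA and aspartate together, none of the 9 host RNAs was called different from HT-DNA alone by edgeR, while 46.6% of all genes were. At an unadjusted p under 0.05 the count was 1, Snhg5, and DESeq2 also called 0. The estimates ran from -0.22 (Snhg15) to 0.24 (Snhg5), with a median of -0.10 against 0.0032 over all genes. Snhg5 came closest to a call, at 0.24 ± 0.099 (edgeR adjusted p = 0.0543), and its HT-DNA+AOA+Asp libraries all lay above its HT-DNA libraries, which held for 1 of the 9 host RNAs in the higher direction and for 30.2% of all genes. Snhg5 was called higher under 4 alternatives, with estimates of 0.24 to 0.29. Snhg6 (-0.26, adjusted p = 0.0314) was called lower once GC content and length were corrected for, and Snhg15 (-0.36, adjusted p = 0.013) without HT-DNA replicate 2. For Snhg12, the difference from HT-DNA was -0.040 ± 0.087 (edgeR adjusted p = 0.732).

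**Figure D2:**
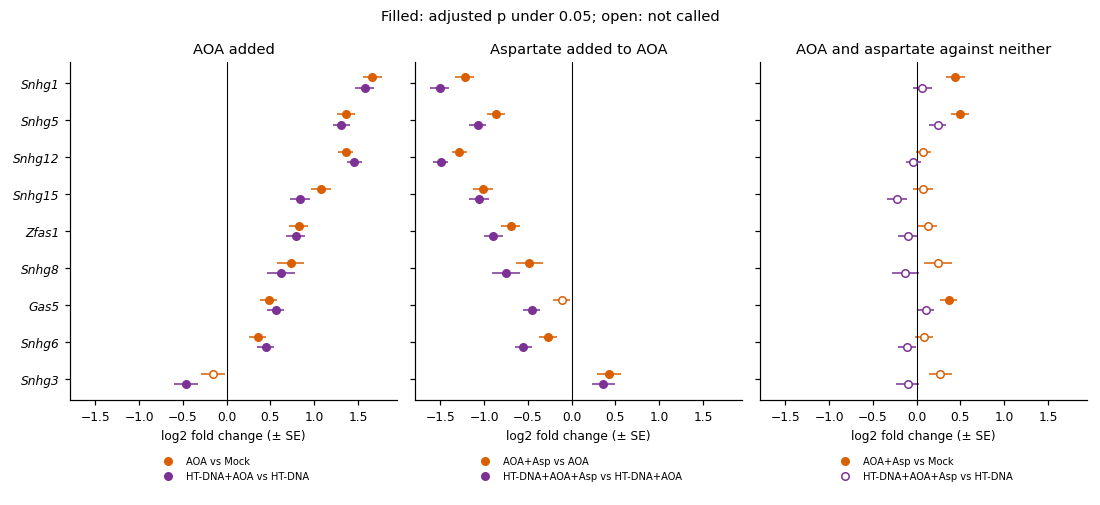
Log2 fold changes of the 9 host RNAs (points) with their SE (lines), with AOA added (left), with aspartate added to AOA (middle) and for both against neither (right), without HT-DNA in orange and with HT-DNA in purple. Filled points passed an adjusted p of 0.05 in edgeR, open points did not. Snhg1 leads on the left at 1.67 and 1.57, Snhg3 is the host with both estimates below 0 there, and on the right 3 orange points and no purple point are filled.

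Whether HT-DNA altered the response was tested as an interaction. For the AOA effect with HT-DNA minus that without it, 0 of 9 host RNAs were called by edgeR, against 15.5% of all genes, 0 had an unadjusted p under 0.05, and DESeq2 called 0. The differences ran from -0.31 (Snhg3, SE 0.19, adjusted p = 0.276) to 0.098 (Snhg12, SE 0.12, adjusted p = 0.598), with Snhg1 at -0.091 ± 0.15 (adjusted p = 0.702). For the aspartate effect the same test called 0 of 9, against 1.05% of all genes, 1 host RNA, Gas5, had an unadjusted p under 0.05, and DESeq2 called 0. All 9 estimates were below 0, from -0.34 (Gas5, SE 0.14, adjusted p = 0.334) to -0.047 (Snhg15, SE 0.16, adjusted p = 0.968). The sign did not hold throughout for Snhg3 and Snhg15. Snhg3 was above 0 with the GC content and length correction (0.052), without AOA replicate 1 (0.037) and without HT-DNA+AOA replicate 3 (0.051). Snhg15 was above 0 without AOA+Asp replicate 2 (0.0067) and without HT-DNA+AOA replicate 3 (0.062). Without replicate 1 of HT-DNA+AOA, the estimates of Gas5 and Snhg1 were -0.42 and -0.42 (adjusted p = 0.0656 and 0.053). The call of Gas5 with aspartate under HT-DNA and its lack without it are therefore not shown to differ.

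**Figure D3:**
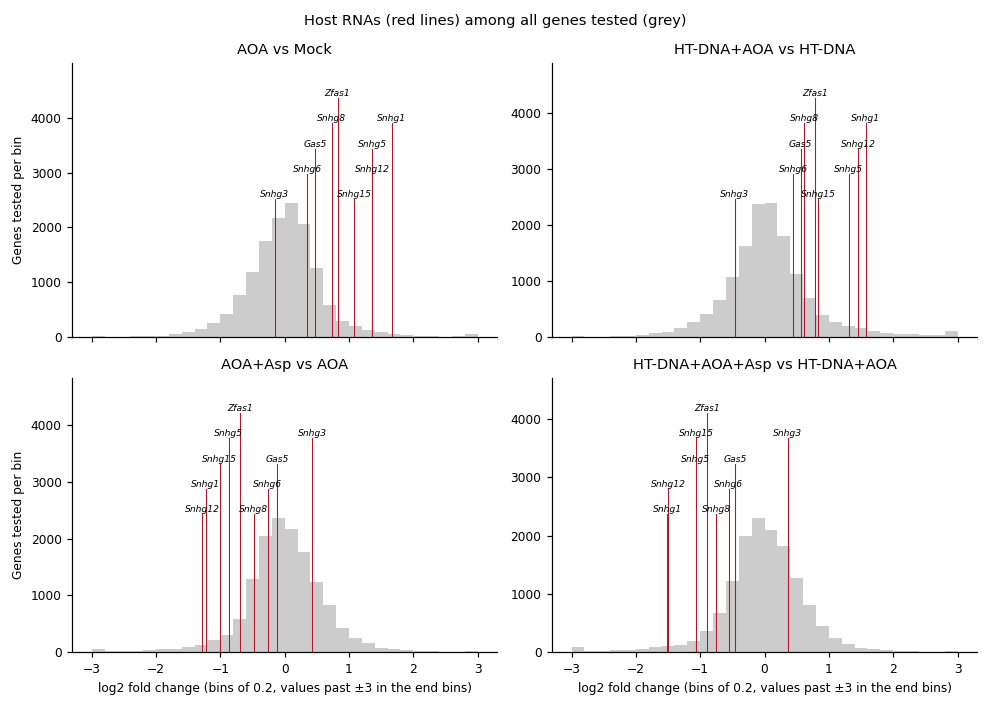
Log2 fold changes of all 14263 genes tested (grey bars, genes per bin of 0.2, values past 3 in either direction placed in the end bins) with the 9 host RNAs as red lines, in 4 comparisons. With AOA 8 lines lie to the right of the bulk of genes or on its right flank and Snhg3 left of the centre. With aspartate 8 lines lie left of 0 and Snhg3 right of it, and without HT-DNA Gas5 lies close to 0, at -0.11.

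The order of the groups was alike for most of the transcripts. Mock had the lowest mean and HT-DNA+AOA the highest for 8 of the 9, and HT-DNA+AOA lay wholly above the next group for 7 of these 8, Snhg8 being the exception. For Snhg1, Snhg5, Snhg12, Snhg15 and Zfas1 the AOA group stood second and was apart from the group below it. For Gas5 the 4 groups between Mock and HT-DNA+AOA overlapped with their neighbours in the order, from AOA+Asp (52.2 ± 5.84 CPM) to HT-DNA+AOA+Asp (58.5 ± 4.99 CPM), and Snhg6 formed a similar series from Mock (11.3 ± 0.882) to HT-DNA (14.7 ± 0.413). Snhg3 had its own order, AOA lowest (26.2 ± 3.72 CPM) and HT-DNA highest (49.5 ± 7.21 CPM). Over the 18 libraries, Pearson's r of a host RNA with the mean of the other 8 (log2 CPM) was 0.87 to 0.98 for 8 of them and 0.028 for Snhg3. These are descriptions over libraries that share treatments.

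Other genes that carry snoRNAs were followed as lists. Of the further noncoding hosts, 10 could be tested, in 11 rows of the table since Snhg4 stands under 2 gene identifiers. With AOA 4 rows rose and none fell, where 22.4% of all genes rose and 23.3% fell. Snhg16 rose the most, from 18.96, 20.6 and 19.9 to 44.5, 49.6 and 49.02 CPM, or 1.27 ± 0.089 (edgeR adjusted p = 3.03e-09), and fell by 1.23 with aspartate (edgeR adjusted p = 5.03e-09). Snhg17 (0.62), Epb41l4aos (0.65) and Snhg7 (0.32) were the others (edgeR adjusted p = 1.00e-06, 0.00851 and 0.0435), and the median of the 11 rows was 0.32. With HT-DNA present, 4 of the 11 rows rose with AOA and 1 fell (22.8% and 22.7% of all genes), and Snhg16 again had the highest estimate, at 1.26 ± 0.087 (edgeR adjusted p = 1.46e-09). With aspartate 3 of the 11 rows were higher than with AOA alone, 3 were lower and 5 were not called. Over all genes 23.5% were higher and 22.8% lower. The higher rows were both of Snhg4 and that of Snhg14 (0.90 for the larger change of Snhg4 and 0.55, edgeR adjusted p = 0.000595 and 0.000474), the direction that Snhg3 showed.

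Of 22 protein-coding hosts, mostly genes for ribosomal proteins and translation factors, 21 rose with AOA and 1 fell (22.4% and 23.3% of all genes), with a median of 0.45. The one that rose the most was Nop56, a core protein of C/D snoRNA particles, from 261, 276 and 264 to 628, 586 and 601 CPM, or 1.18 ± 0.058 (edgeR adjusted p = 2.55e-11), and the one that fell was Hspa8, a cytosolic chaperone, by 0.78 ± 0.063 (edgeR adjusted p = 1.99e-08). With aspartate 17 of the 22 fell and 1 rose (22.8% and 23.5% of all genes), with a median of -0.38. With HT-DNA alone 18 rose and none fell, where 24.2% of all genes rose, and here Hspa8 rose by 0.64 (edgeR adjusted p = 9.07e-07). In cells with HT-DNA, AOA raised 8 of the 22 and lowered 2 (22.8% and 22.7% of all genes), with a median of 0.14. The interaction was called below 0 for 6, where it was for 8.26% of all genes.

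The proteins that assemble snoRNA particles were the next list. Of 18, 11 rose with AOA and none fell, where 22.4% of all genes rose and 23.3% fell. The median was 0.23, and the rises were led by Nop56, Nufip1 (0.65), a factor of particle assembly, and Gar1 (0.65), a core protein of H/ACA particles (edgeR adjusted p = 1.73e-06 and 5.24e-06). With aspartate 10 of 18 fell and none rose (22.8% and 23.5% of all genes). With HT-DNA alone 15 of 18 rose (24.2%), and AOA added to HT-DNA raised 3 and lowered 2 (22.8% and 22.7%). Of 20 genes for the NMD machinery, 7 rose and 5 fell with AOA (22.4% and 23.3% of all genes), with a median of 0.038. Upf3b, which links the decay factors to the exon junction complex, had the largest change. Its level was 36.1, 37.4 and 41.2 CPM in Mock and 15.1, 17.99 and 17.4 CPM with AOA, a log2 fold change of -1.18 ± 0.12 (edgeR adjusted p = 1.81e-07). With aspartate it was 46.7, 41.2 and 43.9 CPM, or 1.38 ± 0.12 over AOA (edgeR adjusted p = 3.45e-08), and with HT-DNA the fall with AOA was 0.93 (edgeR adjusted p = 2.66e-06). Smg5, an NMD factor that acts on UPF1, fell by 0.51 with AOA and by 0.75 with AOA under HT-DNA (edgeR adjusted p = 4.10e-05 and 3.15e-07). In the other direction, Magohb and Casc3 rose by 0.53 and 0.48 with AOA (edgeR adjusted p = 0.00174 and 2.96e-06). With AOA under HT-DNA, 4 of the 20 rose and 5 fell (22.8% and 22.7% of all genes), Smg1 rising by 0.54 (edgeR adjusted p = 0.0332).

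A list of 7 mRNAs known as NMD targets, most of them stress genes that are also controlled in other ways, gave 8 rows, since Ddit3 stands in the table under 2 gene identifiers. With AOA 3 rows rose, namely both rows of Ddit3 and that of Gadd45a, 1 fell and 4 were not called. Over all genes 22.4% rose and 23.3% fell. Gadd45a, a growth-arrest gene, rose by 2.94 ± 0.074, and Ddit3, the stress factor CHOP, by 2.997 ± 0.095 in its abundant row (edgeR adjusted p = 1.24e-15 and 3.49e-14), from 47.02, 42.9 and 48.6 to 348, 374 and 385 CPM. Gadd45b fell by 0.35 (edgeR adjusted p = 0.0277). With aspartate 5 of the 8 rows fell, both rows of Ddit3 among them, and none rose (22.8% and 23.5% of all genes). Among 19 regulators of translation, 7 rose and 8 fell with AOA (22.4% and 23.3% of all genes), with a median of -0.078. The largest rise was that of Ppp1r15a, the stress-induced subunit of the eIF2α phosphatase, at 2.94 ± 0.074, and Ddit4 and Sesn2, which restrain mTOR complex 1, rose by 1.05 and 0.89 (edgeR adjusted p = 1.24e-15, 3.71e-07 and 1.78e-07). All 3 fell again with aspartate, by 2.64, 1.29 and 0.93 (edgeR adjusted p = 1.33e-14, 4.37e-08 and 1.53e-07). These 3 do not stand for the list. The lowest estimate among the 19 with AOA was -0.93, larger in size than the rise of Sesn2. With aspartate 7 of the 19 rose and 6 fell (23.5% and 22.8% of all genes).

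Several host RNAs lie beside or across a protein-coding gene, so those genes were read in the same libraries. Slc3a2, the heavy chain of amino acid transporters, lies 105 bases from Snhg1 on the other strand. It held 171, 166 and 174 CPM in Mock and 349, 349.5 and 340.03 CPM with AOA, or 1.02 ± 0.069 (edgeR adjusted p = 1.74e-09), in the same direction as Snhg1. With aspartate it fell by 0.78, and with HT-DNA AOA raised it by 0.75 (edgeR adjusted p = 6.43e-08 and 4.54e-08). Trnau1ap, a selenocysteine tRNA protein 738 bases from Snhg12, rose by 0.44 with AOA (edgeR adjusted p = 0.0115) but differed by -0.031 ± 0.13 with AOA under HT-DNA (edgeR adjusted p = 0.867), where Snhg12 rose by 1.46.

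Znfx1, a helicase with antiviral functions, is transcribed across from Zfas1 and shares 82 exonic bases with it. It fell by 0.35 with AOA alone (edgeR adjusted p = 0.00391), rose by 1.02 with HT-DNA, and rose by a further 1.17 with AOA under HT-DNA (edgeR adjusted p = 2.23e-07 and 3.92e-09). Its interaction of AOA and HT-DNA was 1.52 ± 0.13 (edgeR adjusted p = 1.16e-06), where that of Zfas1 was -0.031 ± 0.15 (edgeR adjusted p = 0.909). Zbtb37, which overlaps Gas5 on the other strand without sharing exonic bases, fell by 1.16 with HT-DNA (edgeR adjusted p = 0.000152), where Gas5 rose by 0.43. Rcc1, the exchange factor for the GTPase Ran, is transcribed from the same strand as Snhg3, and 135 exonic bases belong to both. It rose by 0.45 with AOA (edgeR adjusted p = 0.000251), where Snhg3 was not called, and fell by 0.38 with aspartate (edgeR adjusted p = 0.00134), where Snhg3 rose. With HT-DNA both rose, Rcc1 by 0.84 (edgeR adjusted p = 1.18e-06). The noncoding Gm17300 lies antisense to Snhg3 over 705 exonic bases. Whether reads were counted by strand is not given in the sources used here, so reads from opposite strands of shared exons cannot be told apart. Of the 31-base words of each host RNA, 0% (Snhg6) to 21.1% (Snhg3) occur in another gene too. For Snhg3 these genes include Rcc1 and the Snora73 genes. Words were compared in the sense of each transcript, so overlap with a gene on the other strand is not counted. Snhg6, for example, shares 127 exonic bases with Mcmdc2 on the other strand. How reads shared by genes were divided is not given in the sources used here.

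**Figure D4:**
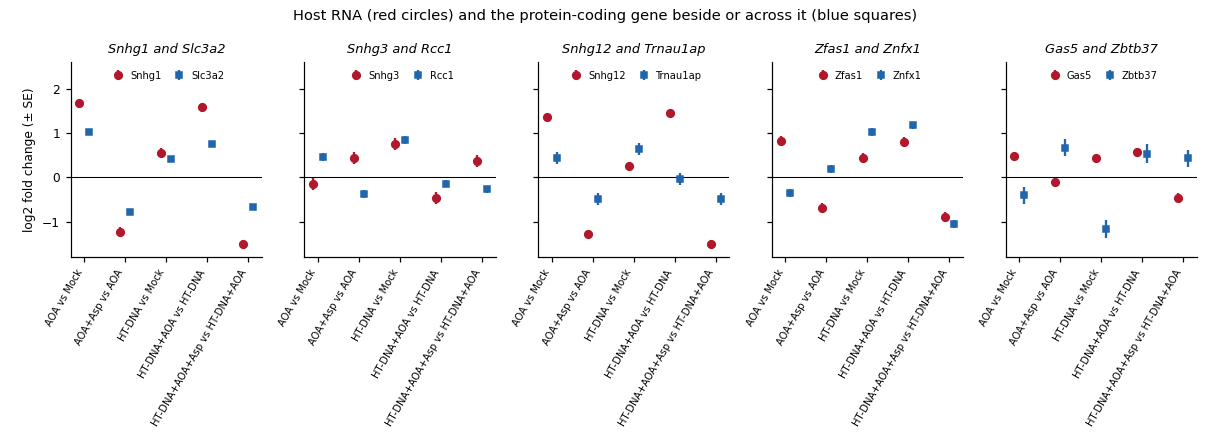
Log2 fold changes (points, with SE as lines) of 5 host RNAs (red circles) and the protein-coding gene beside or across each (blue squares) in 5 comparisons. Slc3a2 lies on the same side of 0 as Snhg1 throughout, Rcc1 on the opposite side from Snhg3 in 3 of the 5, and Znfx1 on the opposite side from Zfas1 in the 2 comparisons that hold no HT-DNA library.

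The snoRNAs themselves could not be read from these libraries. The annotation places 33 snoRNA genes inside the 9 hosts, of which 29 are in the table, and together they held 112 counts over 18 libraries, with at most 4.87 in any library for 1 gene. Among 12123 genes whose mean level reached 1 CPM, those whose pattern over the 18 libraries was most like the mean profile of the 9 host RNAs were Psmc5 (Pearson's r = 0.975), Pdap1 (0.971), Ebna1bp2 (0.970), U2af1 (0.964) and Rpl22 (0.964). Libraries of a group are not independent conditions, so these r values describe the pattern only.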

How the data were processed

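The authors extracted total RNA from L929 cultures with TRIzol, had it sequenced, and deposited 1 table of expected counts per gene (estimated counts, without normalization). The aligner, counting program, genome build and strand setting are not given in the sources used here. Of the values, 11.6% were not whole, and they were rounded; the design had assumed whole counts. The authors' group means in the table were not used. Samples were grouped by their titles. The 9 transcripts and all gene lists were chosen with earlier results of these data known.

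Genes were filtered with filterByExpr (minimum count 10, minimum total 15), libraries were scaled by TMM (factors 0.918 to 1.07), and all 18 were fitted in 1 robust quasi-likelihood model in edgeR 4.0.16 (R 4.3.3) with Benjamini-Hochberg adjustment over 14263 genes and a threshold of 0.05. Tests were two-sided. Cultures are described as independent. Each p-value rests on a spread between cultures of a group that was estimated over all 6 groups and drawn toward that of other genes. It is therefore not the spread of the compared cultures alone, and HT-DNA+AOA was the most spread group. The fit was tested on simulated data. DESeq2 1.42.0, other scalings and filters, a replicate block, leaving out each replicate and, added after seeing the data, a loess correction for GC content and length were the alternatives. All 9 transcripts are named in every comparison, and from each other list up to 4 called genes with the largest change, plus genes beside or across a member. Annotation was GENCODE vM21 (GRCm38), which lacks 5296 of the 57180 gene identifiers. It served for exon lengths, reading frames, overlaps and chromosomes. Sequences are from RefSeq (GRCm38.p6).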

Additional observations from a re-analysis of the deposited data

How the results depend on the processing

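The number of host RNAs called moved by over 1.5 times in 2 comparisons only, under the alternatives run. For AOA+Asp against Mock (3 called) it was 5 when only the libraries compared were fitted and 1 with the GC content and length correction, which was chosen after seeing the data. For HT-DNA+AOA+Asp against HT-DNA (0 called) it was 1 with library totals, with at least 10 counts in every library, with the replicate block, when only the libraries compared were fitted (Snhg5 each time) and with the GC content and length correction (Snhg6). Leaving out 1 replicate at a time gave 8 in every fit for AOA against Mock, 6 to 8 for AOA+Asp against AOA, 1 to 3 for AOA+Asp against Mock, 7 to 9 for HT-DNA against Mock, 8 to 9 for HT-DNA+AOA against HT-DNA, 8 to 9 for HT-DNA+AOA+Asp against HT-DNA+AOA, 0 to 1 for HT-DNA+AOA+Asp against HT-DNA, and 0 in every fit for both interactions.

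A pairing of the libraries by replicate number was not clear. Deviations from the group means of libraries with the same number had a median correlation of 0.00811 (-0.11 to 0.278), 7 of 45 pairs were over 0.1, and 9 of 18 libraries correlated best with their own number. For libraries with other numbers the median was 0.00831 (-0.249 to 0.252), and 3 of 90 pairs were over 0.1. A weak pairing of some libraries therefore remains possible. The replicate block changed no other count by over 1.5 times. No value of a single host RNA changed sign with its call. Leaving aside fits without 1 replicate, 620 such values kept direction and side of the threshold, 11 lost a call, 7 gained one, and 10 had the other sign without a call in either fit. The fits without 1 replicate gave 552, 23, 1 and 18. Library totals in place of TMM lowered the median of all genes by 0.13 for AOA against Mock and 0.11 for HT-DNA against Mock, and the share of calls that were higher fell from 49.1% to 32.1% and from 50.2% to 35.2%. The median of the host RNAs stayed above it, at 0.69 and 0.42. With aspartate against AOA that share rose from 50.7% to 62.2%, with HT-DNA+AOA+Asp against HT-DNA+AOA from 49.8% to 62.2%, and in the interaction of AOA and HT-DNA from 46.7% to 64.5%, whereas in AOA+Asp against Mock it fell from 39.0% to 20.9%. With the GC content and length correction the share was 53.6% in AOA+Asp against Mock and 44.4%, from 25.3%, in the interaction of aspartate and HT-DNA.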
